A study of Homo sapiens with 6 samples.

Results

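ZNF genes encode zinc finger proteins, most of which read DNA through arrays of fingers held together by pairs of cysteines and histidines. The genes described here are those named ZNF plus a number, with an optional closing letter, that lie on chromosomes 1 to 18 or 20 to 22. There were 234 of them among the 19775 genes tested, and 220 further ZNF genes on chromosome 19 and 12 on chromosome X stand outside the group. Where a gene had several probe sets, 1 was selected on its mean level over all 6 arrays, the highest being taken, so levels are given only as a description. Of the 234 genes, 227 are annotated as protein coding and 7 as pseudogenes. All 234 were tested, with no filter on dim genes.

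RNA of subclones of DLD-1, a human colon cancer cell line, was measured on 6 Affymetrix arrays, 3 of DLD-1Δα-Cat and 3 of DLD-1α-Cat. Both were cultured for 96 h without treatment inside a gel of collagen type I at 1 mg/ml. The meaning of Δα-Cat is not explained in the labels, which also leave out how the subclones were derived and whether the replicates were cultured separately, so p-values here reflect only the spread among these samples, which may be technical. With 1 subclone on each side, any other difference between the subclones cannot be told apart from the one in their names. CTNNA1, the αE-catenin gene, stood at 11.23 ± 0.193 in DLD-1Δα-Cat, against 12.75 ± 0.0324 in DLD-1α-Cat (means ± SD, n = 3 each). Of 8 colon epithelial markers 7 lay above the median level of all genes, the exception being CDX1, while 0 of 13 measured fibroblast, leukocyte and endothelial markers did. The mean over the 8 was 11.65 to 11.82 in the arrays of DLD-1Δα-Cat, against 11.84 to 11.92 in those of DLD-1α-Cat. By the test described below 1 of the 8 was lower in DLD-1Δα-Cat, as were 1.67% of all genes. In such bulk RNA, fewer cells of a type and less RNA per cell cannot be told apart.

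A large class of these proteins carries a KRAB domain, which recruits the corepressor TRIM28 and, through it, the histone methyltransferase SETDB1 and heterochromatin proteins to silence DNA, above all transposable elements. Others carry a SCAN domain for pairing with each other, or act as general transcription factors, in chromatin complexes or on RNA. ZNF genes of the KRAB type often lie in runs of neighbouring copies that arose by duplication. Near-identical members can share probe sequence, and cross-hybridisation between them was not tested directly.

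The promoters of a few members are shown because the results below turn on their genes: ZNF10, ZNF605 and ZNF268 belong to a run of 7 neighbouring members on chromosome 12, and ZNF141 and ZNF718, both on chromosome 4, differed in opposite directions. Each line holds the 250 bases before the annotated start in RefSeq (GRCh38.p14), with every CG dinucleotide in capitals.
ZNF10, chr12:133130377-133130626, plus strand: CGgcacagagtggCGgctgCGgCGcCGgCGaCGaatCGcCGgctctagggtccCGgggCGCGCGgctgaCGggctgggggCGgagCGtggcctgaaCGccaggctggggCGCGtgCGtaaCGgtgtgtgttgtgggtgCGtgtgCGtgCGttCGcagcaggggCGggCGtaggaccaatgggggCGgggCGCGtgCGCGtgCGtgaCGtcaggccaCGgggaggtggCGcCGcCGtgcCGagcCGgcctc
ZNF605, chr12:132956307-132956556, minus strand: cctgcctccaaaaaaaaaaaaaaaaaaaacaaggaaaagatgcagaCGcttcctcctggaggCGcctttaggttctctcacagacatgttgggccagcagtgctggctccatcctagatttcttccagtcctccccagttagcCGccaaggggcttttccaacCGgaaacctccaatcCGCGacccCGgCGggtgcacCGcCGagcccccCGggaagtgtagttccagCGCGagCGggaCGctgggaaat
ZNF268, chr12:133181245-133181494, plus strand: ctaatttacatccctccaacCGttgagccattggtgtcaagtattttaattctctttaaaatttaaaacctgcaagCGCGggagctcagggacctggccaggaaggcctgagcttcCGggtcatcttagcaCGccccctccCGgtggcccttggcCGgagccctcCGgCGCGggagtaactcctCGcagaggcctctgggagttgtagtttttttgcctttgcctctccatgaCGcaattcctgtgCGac
ZNF141, chr4:337564-337813, plus strand: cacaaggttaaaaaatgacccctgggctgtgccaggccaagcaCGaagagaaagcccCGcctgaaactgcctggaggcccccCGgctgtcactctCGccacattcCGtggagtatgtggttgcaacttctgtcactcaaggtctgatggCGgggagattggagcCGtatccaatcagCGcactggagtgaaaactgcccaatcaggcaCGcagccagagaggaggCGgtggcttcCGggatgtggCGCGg
ZNF718, chr4:127871-128120, plus strand: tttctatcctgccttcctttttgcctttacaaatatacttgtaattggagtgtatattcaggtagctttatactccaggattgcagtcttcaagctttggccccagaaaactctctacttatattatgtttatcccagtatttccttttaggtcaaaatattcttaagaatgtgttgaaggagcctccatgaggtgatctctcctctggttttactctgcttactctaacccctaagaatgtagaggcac
The stretch before ZNF10 holds 40 CG dinucleotides, that before ZNF605 15, those before ZNF268 and ZNF141 13 each, and that before ZNF718 0.

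RefSeq windows of 300 bases, 250 before to 50 after a start, were available for 184 of the 234 genes, 246 windows in all. They were rich in CG: the median was 24 CG dinucleotides per window, against 14 over all 35116 windows in the table. The string CCGGAAG, the core bound by ETS factors, was present on either strand in 30.9% of the members' windows and in 10.3% of all windows. The string ACTACAA, part of the site bound by the member ZNF143, was present in 6.50% of the members' windows and 2.77% of all. The TATA string TATAAA was present in 5.69% of the members' windows and 11.5% of all, and the E-box CACGTG in 6.50% of the members' windows and 7.26% of all. None of these strings contains another. Among the printed genes, the windows of ZNF268 and ZNF141 held CCGGAAG and that of ZNF268 held ACTACAA. A match describes the letters of the window and not binding. The 13 windows of members that rose had a median of 24 CG dinucleotides, as did the 231 windows of members that did not pass, and the 2 windows of members that fell had a median of 11. CCGGAAG was present in 7 of the 13 windows of members that rose. These 13 windows belong to 9 genes, and several of the 7 are alternative starts of ZNF655, so windows are not separate genes.

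The members' levels, as means over the 6 arrays on the log2 scale of RMA, ran from 2.54 to 13.16 with a median of 8.77, against 7.82 for all genes, and 155 of the 234 lay at or above that overall median. The brightest was ZNF207, which encodes the kinetochore protein BuGZ. It had 13.13, 13.05 and 13.14 in DLD-1Δα-Cat, against 13.21, 13.19 and 13.24 in DLD-1α-Cat. ZNF664, the next brightest, averaged 13.13 ± 0.0451 in DLD-1Δα-Cat, against 13.08 ± 0.0318 in DLD-1α-Cat (means ± SD, n = 3 each). ZNF703, a repressor studied in luminal breast cancer, averaged 12.55 in DLD-1Δα-Cat, against 12.78 in DLD-1α-Cat. ZNF24, a SCAN domain protein, followed with 12.49 in DLD-1Δα-Cat, against 12.37 in DLD-1α-Cat. The KRAB protein ZNF140 had 12.25 in DLD-1Δα-Cat, against 11.94 in DLD-1α-Cat. None of these 5 passed the test (limma adjusted p from 0.132 to 0.771). ZNF750, a factor of epidermal differentiation, was the dimmest at 2.62 in DLD-1Δα-Cat, against 2.46 in DLD-1α-Cat. Probe levels are not comparable between genes beyond this rough order.

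The comparison of DLD-1Δα-Cat with DLD-1α-Cat asked which of these genes differed between the subclones in collagen. Each difference is the log2 level in DLD-1Δα-Cat minus that in DLD-1α-Cat, and a gene is said to have risen, fallen or been called where the Benjamini-Hochberg adjusted p of limma, taken over all 19775 genes, was under 0.05. Of the 234 members 12 rose and 3 fell, together 6.41%, against 5.52% called over all genes. Rises made up 5.13% of the members and 3.84% of all genes, and falls 1.28% and 1.67%. The share of called members thus lay near the background. An unadjusted p under 0.05 (limma) was found for 54 members (23.1%) and for 20.8% of all genes. Counts at that cut-off below that come from the same fit are to be set beside that share. Both subclones' replicates carry the numbers 1 to 3 in their titles. With that number as a block, 20 members rose and 3 fell, where 5.12% of all genes rose and 2.27% fell. All 15 genes called without the block remained called with it. Without replicates 1, 2 and 3 of DLD-1Δα-Cat in turn 3, 4 and 2 members rose, where 2.34%, 1.63% and 1.81% of all genes did. Without replicates 1, 2 and 3 of DLD-1α-Cat in turn 9, 15 and 4 members rose, where 2.86%, 4.32% and 1.70% of all genes did. The 3 falls became 1, 1 and 1 without replicates 1, 2 and 3 of DLD-1Δα-Cat, where 0.981%, 0.602% and 0.688% of all genes fell. They became 2, 1 and 1 without replicates 1, 2 and 3 of DLD-1α-Cat, where 1.24%, 1.76% and 0.587% of all genes fell.

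Differences of the members lay above those of all genes in the middle of the range. The median difference of the members was 0.10, with quartiles of -0.09 and 0.30, against a median of -0.03 over all genes. It was -0.04 when each array was centred on its median over the 19775 tested genes, where the median of all genes was -0.17. That centring lowers every difference by the same 0.14. Over all probe sets, by contrast, the array medians lay between 6.12 and 6.15. Centring on the median below always means that of the tested genes. Differences above 0 were found for 150 members (64.1%) and for 44.7% of all genes. For 67 members (28.6%) the subclones' arrays did not overlap, against 27.2% of all genes. Of these, 48 were higher in DLD-1Δα-Cat (20.5%, against 14.1% of all genes) and 19 lower (8.12%, against 13.1%). No test of the group as a whole was made, because its members were chosen with results of these data known.

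**Figure D1:**
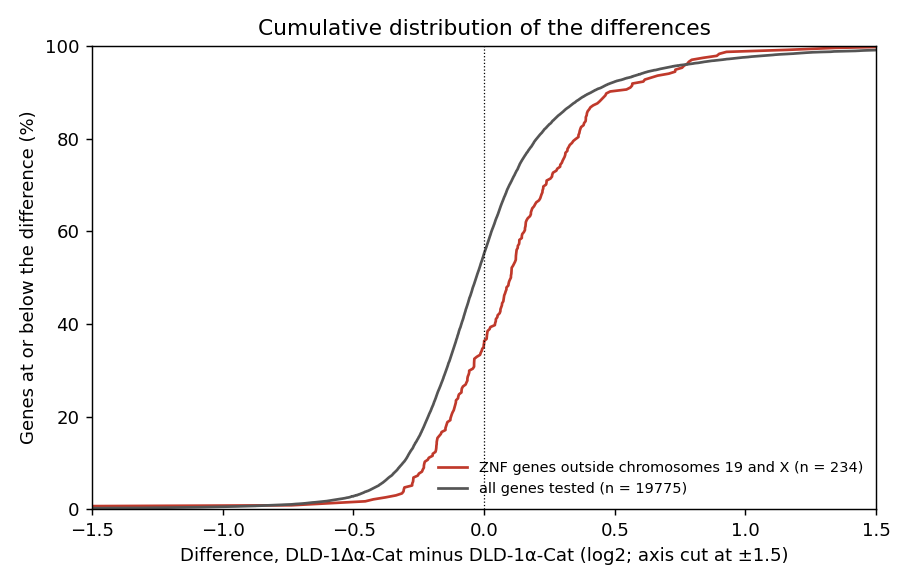
The horizontal axis gives the log2 difference of a gene, DLD-1Δα-Cat minus DLD-1α-Cat, and the vertical axis the percentage of genes at or below it, for the 234 ZNF genes (red) and all 19775 genes tested (grey). The red curve lies to the right of the grey one through the middle of the range, with medians of 0.10 and -0.03. With each array centred on its median over the tested genes both curves move left, to medians of -0.04 and -0.17.

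Members were also split by level, a division made after seeing the data on the same mean that chose the probe sets. Among the 155 members at or above the median level, 76.1% lay above 0 with a median of 0.13, where all genes of that level gave 51.8% and 0.01. With dimmer genes left out of the fit 18 of these 155 rose (11.6%, against 6.61% of the genes kept) and 1 fell (0.645%, against 4.48%). Among the 79 dimmer members, 40.5% lay above 0 with a median of -0.07, where dimmer genes as a whole gave 37.7% and -0.07. The mean over the members was 8.32, 8.37 and 8.36 in DLD-1Δα-Cat, against 8.13, 8.30 and 8.26 in DLD-1α-Cat. Replicate 1 of DLD-1α-Cat was the lowest of the 6 arrays, both in this mean and in the median of all genes (7.64, against 7.80 and 7.85 in the other arrays of its subclone). Without it the median of the members was 0.03 and that of all genes -0.01, and 57.3% of the members and 47.9% of all genes lay above 0. Control probe sets gave measures of RNA quality. The 3' control probe set for β-actin exceeded the 5' one by 5.20 ± 0.159 in DLD-1Δα-Cat, against 4.69 ± 0.291 in DLD-1α-Cat (means ± SD of log2 ratios, n = 3 each, two-sided exact permutation p = 0.1, the smallest possible with 3 arrays a side). The same log2 ratio for GAPDH was 0.749 ± 0.0670 in DLD-1Δα-Cat, against 0.656 ± 0.144 in DLD-1α-Cat (n = 3 each, exact permutation p = 0.4). The β-actin ratio did not overlap between the subclones (5.07 to 5.38 in DLD-1Δα-Cat, against 4.36 to 4.89 in DLD-1α-Cat). Ratio and subclone thus move together, and a gene that does not pass with the ratio as covariate is not thereby shown to be unchanged. With the β-actin ratio as a covariate the median of the members was 0.10 and that of all genes 0.01, and 0 members rose and 1 fell (limma), where 0.293% of all genes rose and 0.131% fell. At an unadjusted p under 0.05 there were 16 higher and 4 lower members in that fit, with no such count made for all genes.

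Further probe sets, which did not represent the genes above, were described in the same way. For the 153 members with more than 1, the second brightest probe set had a median difference of 0.01, against -0.04 for the second brightest of all 10523 such genes. It lay above 0 in 52.3% of members and 42.1% of all genes, and 2 members rose and 0 fell by it (limma over all probe sets), which is 1.31% and 0% of the members, against 1.97% and 1.24% of all such genes. At an unadjusted p under 0.05, 28 members were higher and 8 lower, with no such count made for all genes. These probe sets were dimmer, with a median level of 7.08 in the members. The direction matched that of the brightest probe set in 64.7% of members and 68.5% of all genes.

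The deepest difference was a fall. ZNF572, on chromosome 8, stood at 3.20, 3.07 and 2.92 in DLD-1Δα-Cat, against 5.51, 5.63 and 5.62 in DLD-1α-Cat. All arrays of DLD-1Δα-Cat lay near the bottom of the scale, and those of DLD-1α-Cat more than 2 units higher. The difference was -2.52 (SE 0.108, limma adjusted p = 4.76e-05), a 5.75-fold lower signal in DLD-1Δα-Cat that depends on the array's floor. It rests on a single probe set, passed in all 6 fits that left out an array, and was the 1 member called with the actin covariate (adjusted p = 0.0137).

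ZNF75A, a KRAB zinc finger gene on chromosome 16, had the firmest rise. It stood at 10.37, 10.55 and 10.39 in DLD-1Δα-Cat, against 8.99, 9.24 and 9.05 in DLD-1α-Cat. The subclones were more than 1 unit apart in every array, and the difference was 1.34 (SE 0.110, limma adjusted p = 0.000980), or 2.54-fold. Its dimmer probe sets differed by 0.42 and 0.25 and did not pass. With the actin covariate the difference was 1.20 (adjusted p = 0.0786).

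ZNF10, also called KOX1, whose KRAB domain is the one most used in engineered repressors, lies on chromosome 12. It stood at 8.68, 8.70 and 8.54 in DLD-1Δα-Cat, against 7.20, 7.61 and 7.64 in DLD-1α-Cat. The groups did not overlap, and the difference was 1.16 (SE 0.139, limma adjusted p = 0.00506), or 2.23-fold. Its other probe sets differed by 0.51 and 0.61 without passing. ZNF572, ZNF75A and ZNF10 were the 3 called members that passed in all 6 fits without an array.

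ZNF141, a KRAB zinc finger gene on chromosome 4, had the largest rise and, among the called members, the largest SE. It stood at 7.95, 8.40 and 8.08 in DLD-1Δα-Cat, against 5.58, 6.90 and 6.91 in DLD-1α-Cat. Replicate 1 of DLD-1α-Cat lay more than 1 unit below the others of its subclone. The difference was 1.68 (SE 0.349, limma adjusted p = 0.0377), and it passed in 2 of the 6 fits without an array. ZNF718, another KRAB gene of chromosome 4, went the opposite way. It stood at 7.21, 7.56 and 7.27 in DLD-1Δα-Cat, against 7.90, 8.37 and 7.99 in DLD-1α-Cat, a fall of 0.74 on the log2 scale (SE 0.157, limma adjusted p = 0.0414) that passed in 1 of those fits.

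The other rises were between 1.34-fold and 1.87-fold. ZNF34, a KRAB gene of chromosome 8, averaged 8.28 ± 0.184 in DLD-1Δα-Cat, against 7.38 ± 0.194 in DLD-1α-Cat (means ± SD, n = 3 each), a difference of 0.90 (limma adjusted p = 0.0144). ZNF596, a KRAB gene of the same chromosome, averaged 7.04 ± 0.108 in DLD-1Δα-Cat, against 6.31 ± 0.132 in DLD-1α-Cat, with a difference of 0.73 (limma adjusted p = 0.0127). Both have 1 probe set, and they passed in 3 and 5 of the 6 fits without an array. ZNF462, a many-fingered protein whose mouse counterpart maintains heterochromatin in embryonic stem cells, averaged 11.04 ± 0.218 in DLD-1Δα-Cat, against 10.21 ± 0.308 in DLD-1α-Cat. Its difference was 0.84 (limma adjusted p = 0.0431), and a further probe set differed by 1.46 (adjusted p = 0.0412 when every probe set was tested), the 1 further probe set of a called member to pass. ZNF655, whose product binds the signalling protein VAV1, rose by 0.57 at a high level, with 11.22 ± 0.121 in DLD-1Δα-Cat, against 10.65 ± 0.166 in DLD-1α-Cat. ZNF322 had the tightest arrays, 11.70, 11.65 and 11.70 in DLD-1Δα-Cat, against 11.24, 11.26 and 11.29 in DLD-1α-Cat. Its difference of 0.42 (SE 0.0868, limma adjusted p = 0.0379) nevertheless passed in 0 of the 6 fits without an array.

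The KRAB genes ZNF605 (0.79), ZNF19 (0.64) and ZNF684 (0.61) and the zinc finger gene ZNF438 (0.61) also rose, with limma adjusted p from 0.0185 to 0.0480. ZNF684 was measured by a probe set of the kind marked as open to cross-hybridisation, the 1 such case among the called members. ZNF697 fell. It averaged 9.21 ± 0.179 in DLD-1Δα-Cat, against 9.81 ± 0.160 in DLD-1α-Cat (means ± SD, n = 3 each), with a difference of -0.60 (limma adjusted p = 0.0463) that passed in 0 of the fits without an array. Of the 17 further probe sets of the 12 called members that have them, 16 differed in the direction of the brightest and 1, of ZNF605 at -0.26, in the other. With every probe set tested 6 members rose (2.56%, against 2.97% of all genes) and 1 fell (0.427%, against 1.23%).

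**Figure D2:**
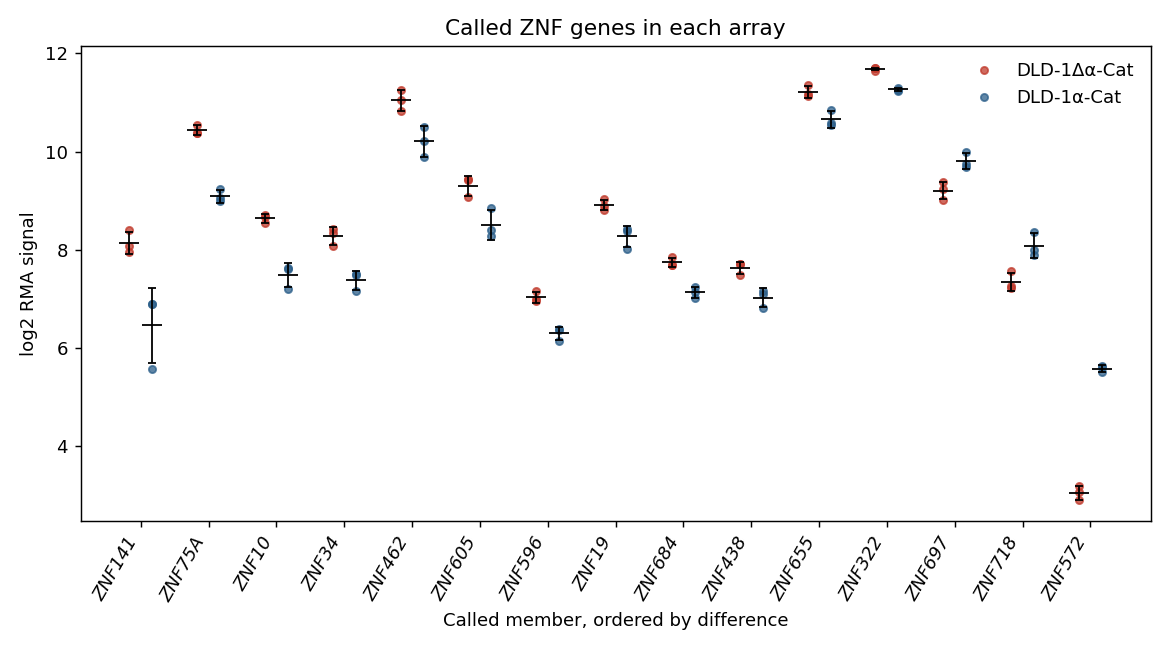
The vertical axis gives the log2 RMA signal of the 15 called members, ordered from the largest rise at the left to the deepest fall at the right; points are single arrays of DLD-1Δα-Cat (red) and DLD-1α-Cat (blue), and bars give the mean ± SD (n = 3). For each of the 15 genes the red and blue points stand apart, and ZNF572 lies lowest, at 3.06 in DLD-1Δα-Cat, against 5.59 in DLD-1α-Cat.

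Several members with differences of a similar size did not pass. ZNF704 averaged 10.34 ± 0.316 in DLD-1Δα-Cat, against 9.42 ± 0.334 in DLD-1α-Cat (means ± SD, n = 3 each), a difference of 0.93 (limma adjusted p = 0.0520), and its 5 other probe sets differed by 0.30 to 0.76. ZNF618, a partner of the methylcytosine reader UHRF2, differed by 0.78 (adjusted p = 0.0993), the KRAB gene ZNF268 by 0.71 (adjusted p = 0.0621), ZNF862 by 0.78 (adjusted p = 0.210) and the transcribed pseudogene ZNF204P by 0.76 (adjusted p = 0.0546). In each of these 5 the groups stood apart. The other probe sets of ZNF268 differed by 0.80 and 0.81, and the latter passed when every probe set was tested (limma adjusted p = 0.0106). Those of ZNF618 differed by 0.55 and -0.03, and that of ZNF862 by 0.81. With the replicate block ZNF704 (adjusted p = 0.0147), ZNF204P (0.0186) and ZNF618 (0.0444) passed, with ZNF391, ZNF467, ZNF488, ZNF658 and ZNF767P as the other 5 gained calls. Of the 7 pseudogenes, 5 lay above 0, 4 had an unadjusted p under 0.05 (limma, against 20.8% of all genes) and none passed.

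By chromosome, the called members were scattered. Chromosomes 1, 4, 8, 12 and 16 held 2 or more of the 15, and chromosomes 6, 7, 9 and 10 held 1 each. All 12 members on chromosome 12 lay above 0, from 0.04 to 1.16 with a median of 0.30, whereas 44.1% of its 1023 other genes did, with a median of -0.03. All 12 were at or above the median level of all genes. At such levels 76.1% of members and 51.8% of all genes lay above 0. With each array centred on its median 9 of the 12 lay above 0, and without replicate 1 of DLD-1α-Cat 11 did, with a median of 0.18. All 6 members on chromosome 11 and all 2 on chromosome 14 also lay above 0, with medians of 0.12 and 0.23. Of the other genes on these chromosomes 40.2% and 45.0% did. Median centring, which lowers every difference by 0.14, puts the median of chromosome 11 below 0. On chromosome 5 and chromosome 20, 2 of 10 and 3 of 10 members did, with medians of -0.08 and -0.05. The largest set, 30 members on chromosome 7, had a median of 0.08 and 1 call.

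**Figure D3:**
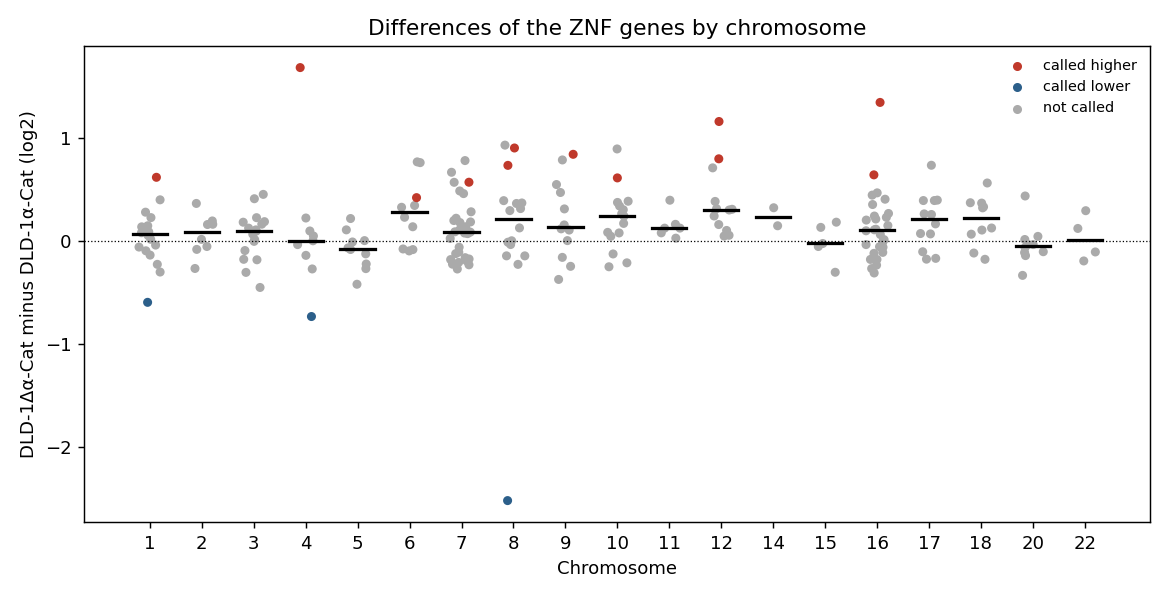
The vertical axis gives the log2 difference of each ZNF gene, DLD-1Δα-Cat minus DLD-1α-Cat, and the horizontal axis its chromosome; red points were called higher, blue lower and grey not called, black lines mark medians, and the spread of points within a chromosome is for display. All 12 points of chromosome 12 lie above 0 (9 of 12 with each array centred on its median). So do all points of chromosomes 11 and 14 before such centring, which puts the median of chromosome 11 below 0. The deepest point is ZNF572 on chromosome 8.

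Neighbouring members formed 10 runs, taken as 4 or more members with at most 2 other protein-coding genes between consecutive ones, which held 60 members. The run at the end of chromosome 12 comprised ZNF605, ZNF26, ZNF84, ZNF140, ZNF891, ZNF10 and ZNF268. Of its 7 members 2 rose, where 5.13% of all members and 3.84% of all genes did. That count was 1 to 3 over the fits without an array, 4 with trended robust eBayes and 0 with the actin covariate. ZNF605 had 9.07, 9.42 and 9.44 in DLD-1Δα-Cat, against 8.28, 8.86 and 8.40 in DLD-1α-Cat. ZNF268 had 9.06, 9.12 and 9.01 in DLD-1Δα-Cat, against 8.07, 8.74 and 8.26 in DLD-1α-Cat. Both sets of arrays stood apart, with replicate 2 of DLD-1α-Cat nearest to the other subclone. The bright ZNF140 also stood apart, with 12.35, 12.20 and 12.20 in DLD-1Δα-Cat, against 11.96, 12.02 and 11.85 in DLD-1α-Cat, at a difference of 0.31 (limma adjusted p = 0.132). ZNF26 (0.30), ZNF84 (0.30) and ZNF891 (0.04) overlapped between the subclones.

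The 11 tested genes around this run that are not members, ending at ANHX, ran from -0.57 to 0.25 with a median of -0.12, and 4 lay above 0 and 0 were called (limma, 2 at an unadjusted p under 0.05). The run itself had a median of 0.31, which was 0.17 with each array centred on its median and 0.26 to 0.51 over the fits without an array. With the actin covariate the median was 0.21, and 0 of the 7 passed (limma). In that fit 1 had an unadjusted p under 0.05, with no such count made for all genes.

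**Figure D4:**
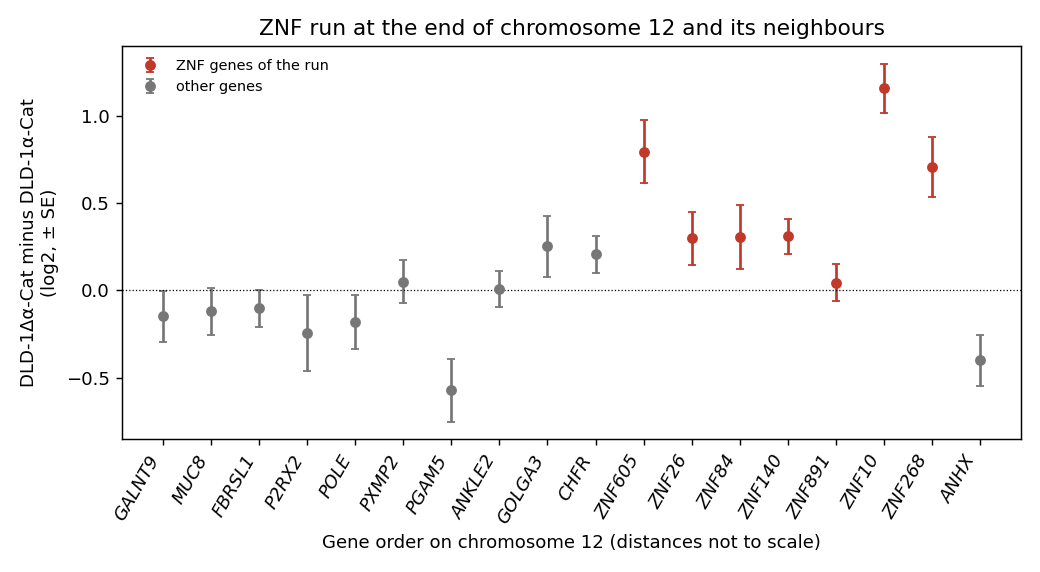
The horizontal axis lists tested genes in their order on chromosome 12, not to scale, and the vertical axis gives the log2 difference, DLD-1Δα-Cat minus DLD-1α-Cat, with its SE from limma; ZNF genes are red and other genes grey. The 7 ZNF genes lie between 0.04 and 1.16, and the other genes between -0.57 and 0.25.

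Of the other runs, the 7 members on chromosome 8 from ZNF251 to ZNF252P had a median of 0.31 with 6 above 0, and 1 of them, ZNF34, rose. In 5 of these 7 the arrays stood apart with DLD-1Δα-Cat higher, as they did in 20.5% of the members and 14.1% of all genes. The 5 members on chromosome 10 from ZNF248 to ZNF33B all lay between 0.17 and 0.38, 3 had an unadjusted p under 0.05 (limma) and none passed. The 11 members on chromosome 7 from ZNF786 to ZNF862 had a median of 0.12 with 10 above 0 and 3 at an unadjusted p under 0.05 (limma), and again none passed. With each array centred on its median every difference is lower by 0.14, which puts the median of the chromosome 7 run below 0. On chromosome 4 the run from ZNF876P to ZNF721 had a median of -0.02 with ZNF141 at 1.68 as its 1 call. The rest, on chromosomes 1, 3, 7, 16 and 18, had medians between -0.01 and 0.24 with no call (limma), and 0 or 1 of each at an unadjusted p under 0.05.

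Of 31 members with described roles 1 was called (3.23%, against 5.52% of all genes). It was ZNF10, 1 of 13 named transcription factors, whose median was 0.01. ZNF143, an activator of many housekeeping promoters, stood at 9.56 ± 0.176 in DLD-1Δα-Cat, against 9.54 ± 0.0519 in DLD-1α-Cat (means ± SD, n = 3 each, difference 0.02, limma adjusted p = 0.924). ZNF281, a regulator of epithelial-mesenchymal transition, had 11.58, 11.42 and 11.68 in DLD-1Δα-Cat, against 11.92, 11.84 and 11.85 in DLD-1α-Cat. Its arrays did not overlap, but the difference of -0.31 did not pass (adjusted p = 0.149). ZNF217, an oncogene of chromosome 20, differed by -0.11, and ZNF148 by 0.01. The developmental factors ZNF423 and ZNF521 were dim in both subclones, at means of 4.35 and 4.53 over the arrays.

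None of 4 SCAN domain proteins, 9 proteins of RNA, ribosomes, SUMO or mitosis and 5 chromatin complex members passed (limma), with medians of 0.03, -0.01 and 0.09 and 0, 1 and 0 genes at an unadjusted p under 0.05. Among the second of these sets ZNF451, a SUMO ligase, averaged 12.03 ± 0.0308 in DLD-1Δα-Cat, against 11.70 ± 0.128 in DLD-1α-Cat, and its difference of 0.32 had an adjusted p of 0.124 (limma). ZNF598, the ubiquitin ligase that marks collided ribosomes, differed by -0.04 and ZNF622, a factor of large ribosomal subunit assembly, by -0.01. ZNF644, a partner of the histone methyltransferases G9a and GLP, differed by 0.14 (adjusted p = 0.446).

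The partners through which KRAB proteins act showed 1 call. Of 36 corepressor and heterochromatin genes, 0 rose (against 3.84% of all genes) and 1 fell (2.78%, against 1.67%), with a median of -0.04. In 8 the subclones' arrays stood apart with DLD-1Δα-Cat lower (22.2%, against 13.1% of all genes). In 4 they did so with DLD-1Δα-Cat higher (11.1%, against 14.1%). At an unadjusted p under 0.05 (limma) 0 were higher and 6 lower (16.7%, against 20.8% of all genes in either direction). HELLS, a chromatin remodeller needed for DNA methylation, had 10.98, 10.82 and 10.88 in DLD-1Δα-Cat, against 11.68, 11.60 and 11.64 in DLD-1α-Cat. The arrays did not overlap, and the difference of -0.75 (SE 0.0932, limma adjusted p = 0.00588) passed in all 6 fits without an array but not with the actin covariate (adjusted p = 0.233). TRIM28, the central corepressor, had 11.51, 11.56 and 11.50 in DLD-1Δα-Cat, against 11.62, 11.71 and 11.91 in DLD-1α-Cat, a difference of -0.22 that did not pass (adjusted p = 0.290). SETDB1 differed by 0.20 (adjusted p = 0.357) and the heterochromatin protein CBX5 by -0.34 (adjusted p = 0.232). The deacetylase HDAC2 (-0.45, adjusted p = 0.0520), the silencing ATPase MORC2 (-0.54, adjusted p = 0.0689) and the methyltransferase SUV39H2 (-0.51, adjusted p = 0.0832) came next without passing, and SUV39H2 passed with the replicate block (adjusted p = 0.0391).

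Set beside the members, the 220 ZNF genes of chromosome 19 had a median difference of 0.16, and 27 of them rose (12.3%) and 0 fell (limma). Whether the 2 groups differ was not tested.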

How the data were processed

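Affymetrix arrays measured total RNA of 3 samples of each subclone, grouped by sample title. The deposited values are log2 RMA signals (background subtraction, quantile normalization and probe summary) made by the authors. Per the submitters' processing notes the program was Affymetrix Expression Console; its version is not given in the sources used here. This step removes differences in overall brightness. Array medians over all probe sets lay between 6.12 and 6.15, and the number of arrays limits precision. Of 54675 probe sets, 62 controls were left out, and the platform annotation of 2016 gave 1 gene symbol for 41091, several for 1801 and none for 11721. By gene ID 41037 matched RefSeq (GRCh38.p14, used for names, chromosomes and gene order), among them all 234 members. A further 62 probe sets naming a ZNF gene among several symbols were not used. Each gene was its brightest probe set.

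The test was limma's moderated one (version 3.58.1, R version 4.3.3; lmFit, eBayes, two-sided, Benjamini-Hochberg over 19775 genes). The members and lists were chosen with earlier results of these data known. Named genes are all called members, the 5 brightest, the 5 largest differences above the median level that did not pass, members of a list of known roles, and called corepressors; others complete a count, a run or an example and were chosen after their values were seen. Of the role list, 31 genes are members. Protein sequences were not used, so no class by domain was formed, and roles are background knowledge. No label states a pairing, and the main test used none. Same-numbered arrays deviated from their subclone means with r = 0.225, 0.376 and 0.122, and differently numbered ones with r from -0.317 to 0.0666. Only the replicate block treated the numbers as pairs, on that evidence. It comes from the same values that the block was fitted to, so it is no independent support for a pairing. Alternatives were the replicate block, quantile normalization, median centring, a filter on dim genes, other probe set choices, trended robust eBayes, the actin ratio as covariate and leaving out each array.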

Additional observations from a re-analysis of the deposited data

How the results depend on the processing

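Of all 19775 genes, 760 rose in the main fit. The 12 rises of members became 20 with the replicate block (1012 of all genes) and 23 with trended robust eBayes (1150 of all genes). With dim genes left out they were 18 of 155 (11.6%, against 6.61% of all genes kept). Centring each array on its median gave 8 (553 of all genes), and 10 of the 15 calls remained. Without probe sets open to cross-hybridisation 10 of 214 members rose (584 of 17098 genes). There were 6 when each probe set was tested (587 of all genes), 0 with the actin ratio as covariate (58 of all genes) and 2 to 15 without single arrays. The 3 falls became 1 with dim genes left out, with the actin covariate and when each probe set was tested, and 1 to 2 without single arrays. Fewer genes or more probe sets tested changes the adjustment by construction; otherwise the cause was not tested. The median of 0.10 was -0.0366 with median centring, which shifts all genes, and 0.0347 to 0.136 without single arrays. The 1 call among 36 corepressor genes became 2 with the block and with quantile normalization, and 3 with median centring and with the mean of probe sets. It became 4 with trended robust eBayes, 4 of the 34 kept with dim genes left out, 0 with the actin covariate, and 1 to 2 without single arrays. Calls over all genes changed between these fits too. From 760 higher and 331 lower they became 1012 and 449 with the block, and 764 and 388 with quantile normalization. They were 553 and 525 with median centring, 780 and 375 with the mean of probe sets, and 1150 and 564 with trended robust eBayes. With dim genes left out they were 654 and 443 of 9888 genes. The actin ratio difference was 0.348 to 0.615 without single arrays. The 15 called members kept their direction in all 219 alternative fits that measured them and passed in 126. In many of these fits the direction could not turn. The block, trended robust eBayes, the filter on dim genes and the test of every probe set return the same difference. In all 15 the arrays stood apart, so leaving out an array cannot change the direction either. Of 10 named members that did not pass, 6 fits turned the sign: ZNF24 to -0.0166 and ZNF664 to -0.0873 with median centring, ZNF664 to -0.0034 and ZNF207 to 0.0797 with the mean of probe sets, ZNF664 to -0.0015 with the actin covariate, and ZNF207 to 0.797 without probe sets open to cross-hybridisation. The block, paired by replicate number, ended no call among the 15. Members restricted to levels at or above the overall median, a choice made after seeing the data, had a median of 0.13. Dim members such as ZNF750 lie near the array's floor, where differences cannot be resolved.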
